A study of Mus musculus with 6 samples.

Results

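WNT signalling genes were examined in mouse medulloblastomas with and without the histone acetyltransferase gene Crebbp. The set comprised 60 listed genes in 6 roles, namely secreted ligands, receptors and co-receptors, extracellular antagonists, genes of the R-spondin axis, TCF/LEF transcription factors and feedback targets. Of these, 59 were measured among the 22180 genes of the array, and Tcf7 was not analysed here. All 6 tumours carried 1 SmoM2 allele (an active form of Smoothened, the transducer of Sonic hedgehog, SHH), switched on by the Math1 Cre driver, which acts in granule neuron progenitors. The 3 wild type tumours had the genotype Math1Cre::SmoM2Fl/+, and the 3 knockout tumours, Math1Cre::CrebbpFl/FlSmoM2Fl/+, also carried floxed Crebbp on both alleles. The series text names the driver Math1CreERT2, which needs tamoxifen, and 1 mg was injected at postnatal day 5. The protocol places collection at postnatal day 60. RNA from tumour tissue was hybridised to Affymetrix arrays, so cells in which the driver is not active contribute to each value and keep Crebbp.

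WNT proteins are secreted lipid-modified signals that bind Frizzled receptors together with a co-receptor. With LRP5 or LRP6 as co-receptor, the canonical branch protects beta-catenin from destruction, and beta-catenin then activates genes with TCF/LEF factors, among them inhibitors that dampen the signal. With ROR or RYK as co-receptor, other branches steer cell polarity and movement. In the cerebellum WNT signals take part in patterning and in granule neuron maturation, and active canonical signalling defines a subgroup of medulloblastoma that is distinct from the SHH subgroup.

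The arrays had median log2 levels of 6.91 to 7.002 over all features. Crebbp had a log2 change (knockout minus wild type) of -0.50, with log2 values of 11.80, 11.76 and 11.70 in the wild type and 11.24, 11.34 and 11.20 in the knockout tumours (limma adjusted p = 0.0948). Xist averaged 5.44 on the log2 scale in the wild type and 12.34 in the knockout group, and Y-linked Uty averaged 9.64 and 4.73, so sex and genotype cannot be told apart here, for any gene below. None of the measured WNT genes lies on X or Y (0 of 59). All 12 markers of SHH medulloblastoma and granule neuron progenitors were measured. Their mean log2 level was 10.80 to 11.08 in wild type and 10.66 to 10.77 in knockout tumours, so these ranges did not overlap. Of the 12 markers, 9 had groups that did not overlap (75%, against 19.6% of all genes), 2 higher and 7 lower in knockout tumours. The labels do not say that tumours of a group came from separate litters or animals, so p-values measure the spread between these samples.

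No WNT gene passed an adjusted p of 0.05 over all genes (limma, 0 of 59), where 0.207% of all genes did (0.126% higher and 0.0812% lower in knockout tumours). At an unadjusted p under 0.05 there were 12 WNT genes, 4 higher and 8 lower in knockout tumours, which is 20.3% of those measured against 13.8% of all genes. Knockout and wild type values were fully apart, without overlap, for 18 WNT genes, 5 higher and 13 lower in knockout tumours. That is 30.5%, against 19.6% of all genes (10.2% higher and 9.43% lower). The median log2 change was -0.09 over the 59 WNT genes and 0.0039 over all genes, with 39 WNT genes negative and 20 positive. In these bulk samples fewer cells of a type and less RNA per cell cannot be told apart. For 57 of the 59 genes the 95% confidence interval of the log2 change lay between -1 and 1, and for 36 it lay between -0.5 and 0.5. The exceptions to the wider bound were Wif1 and Fzd7. The median log2 level was 7.08 for the WNT genes and 7.42 for all genes. Changes of dim features are compressed in these values, so a narrow interval of a dim gene does not bound its true change.

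**Figure D1:**
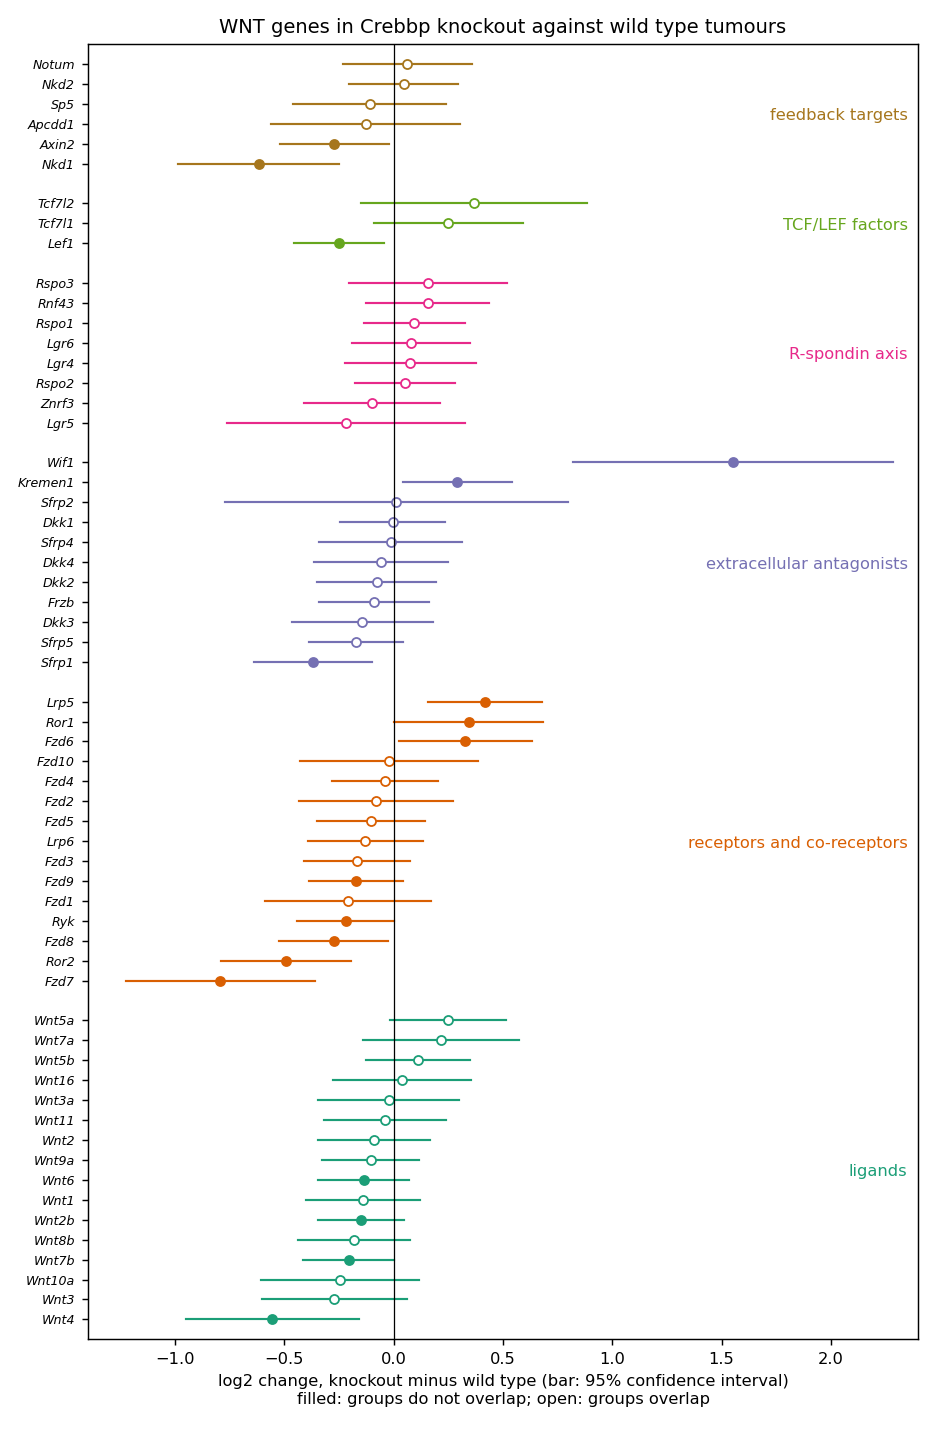
Log2 change of each of the 59 measured WNT genes (x axis, knockout minus wild type) by role (colours), with 95% confidence intervals from limma, filled where the groups did not overlap. Wif1 stands to the right at 1.55 and Fzd7 to the left at -0.79, and no gene of the R-spondin axis is filled.

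**Figure D2:**
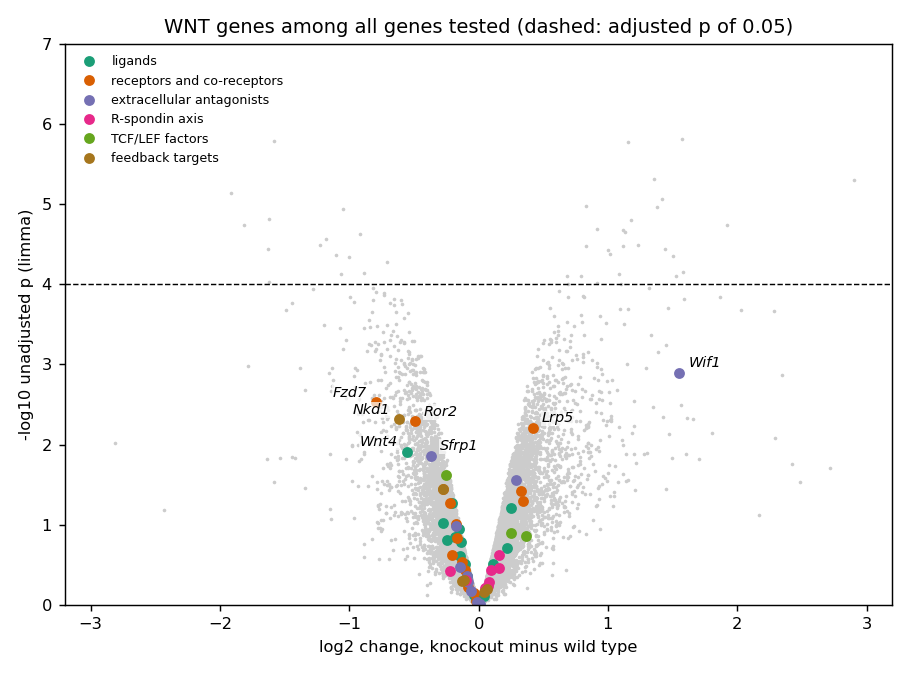
Log2 change (x axis, knockout minus wild type) against -log10 of the unadjusted limma p (y axis) for all 22180 genes (grey) and the 59 WNT genes (coloured by role). No WNT gene lies above the dashed line, which marks an adjusted p of 0.05, and 4 sex-linked genes lie outside the axes.

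Among the secreted ligands, the log2 change was negative for 12 of 16 and positive for 4 (median -0.12). The groups did not overlap for 4 ligands, Wnt4, Wnt7b, Wnt2b and Wnt6, and in each of them the knockout tumours were lower. That is 4 of 16 ligands, where the groups were apart for 19.6% of all genes. Wnt2b and Wnt6 had small changes of -0.15 (interval -0.35 to 0.05) and -0.14 (interval -0.34 to 0.07). For Wnt6 the gap between the groups was only 0.013. Wnt4, a ligand best known from kidney and gonad development, had log2 values of 8.04, 8.07 and 8.30 in the wild type and 7.93, 7.55 and 7.26 in the knockout tumours. Knockout tumour 1 lay just under the wild type range, and the other two lay clearly below it. The mean log2 change of Wnt4 was -0.55 (SE 0.17, limma adjusted p = 0.236), a level 1.47 times as high in wild type tumours.

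Wnt7b, which acts with Wnt7a on brain endothelium, had log2 values of 6.83, 6.84 and 6.96 in the wild type and 6.75, 6.61 and 6.65 in the knockout tumours (log2 change -0.21, SE 0.09, limma adjusted p = 0.369). Its partner Wnt7a had a log2 change of 0.22, with an interval of -0.14 to 0.57 and overlapping groups. The non-canonical ligand Wnt5a had a change of 0.25, with an interval of -0.02 to 0.51. Its values were 6.37, 6.35 and 6.50 in wild type and 6.85, 6.49 and 6.63 in knockout tumours, and knockout tumour 2 lay within the wild type range. The related Wnt5b had a change of 0.11 (interval -0.13 to 0.35). The canonical ligands Wnt1 and Wnt3a, classical activators of beta-catenin, had changes of -0.14 (interval -0.40 to 0.12) and -0.02 (interval -0.34 to 0.30). Wnt3, a ligand made by Purkinje cells, had a change of -0.27 (interval -0.60 to 0.06). Wnt9a and Wnt11 were at log2 changes of -0.11 and -0.04, and Wnt2, Wnt8b and Wnt10a at -0.09, -0.18 and -0.25, all with overlapping groups. Wnt16 had mean log2 levels of 5.41 and 5.45 in the 2 groups. These lay within the range of 12 values from Xist and Y-linked Kdm5d, Eif2s3y and Uty in the sex without them (4.31 to 5.74), a rough guide only, since features differ in their probes.

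Among the receptors and co-receptors the groups did not overlap for 8 of 15 genes (53.3%, against 19.6% of all genes), with 3 higher and 5 lower in knockout tumours. The median log2 change of the role was -0.13, and 12 of its genes were negative. Fzd7, a Frizzled receptor of both WNT branches, had log2 values of 10.94, 10.83 and 10.29 in the wild type and 9.88, 10.11 and 9.70 in the knockout tumours. Wild type tumour 3 was the lowest of its group and lay just above the highest knockout tumour. The mean change of Fzd7 was -0.79 (SE 0.19, limma adjusted p = 0.159), a level 1.73 times as high in wild type tumours. Without wild type tumour 3 the change was -0.99 and passed (limma adjusted p = 0.0492), while without each of the other tumours the adjusted p lay between 0.14 and 0.383. Fzd1 and Fzd2, the Frizzled receptors closest to Fzd7 in sequence, had changes of -0.21 (interval -0.59 to 0.17) and -0.08 (interval -0.43 to 0.27), with overlapping groups.

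The changes of the paralogous co-receptors had opposite signs, a difference that was not tested. Ror2, a receptor tyrosine kinase of the Wnt5a branch, had log2 values of 9.32, 9.66 and 9.58 in the wild type and 9.07, 9.17 and 8.85 in the knockout tumours, with a change of -0.49 (SE 0.13, limma adjusted p = 0.184). Its paralogue Ror1 had log2 values of 8.67, 8.75 and 8.26 in the wild type and 8.75, 8.91 and 9.05 in the knockout tumours, with a change of 0.34 (SE 0.15, limma adjusted p = 0.364). For Ror1 the groups nearly touched, and wild type tumour 3 was the lowest. Lrp5, a canonical co-receptor, had log2 values of 8.28, 8.49 and 8.40 in the wild type and 8.89, 8.91 and 8.63 in the knockout tumours, a change of 0.42 (SE 0.11, limma adjusted p = 0.19). All 3 knockout tumours were above all wild type tumours. Lrp6, the other canonical co-receptor, had a change of -0.13 (interval -0.39 to 0.14) with overlapping groups. A second Lrp6 feature, not used in the test, had a change of -0.78, from 7.46 to 6.68, so the 2 features of this gene differed in size of change.

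Fzd3 and Fzd6 serve planar polarity and axon guidance. Fzd6 had log2 values of 7.52, 7.12 and 7.52 in the wild type and 7.82, 7.62 and 7.71 in the knockout tumours, a change of 0.33 (SE 0.13, limma adjusted p = 0.333). Fzd3 had a change of -0.17 (interval -0.41 to 0.07), and its groups overlapped. Fzd8 had log2 values of 5.90, 6.22 and 6.18 in the wild type and 5.86, 5.79 and 5.82 in the knockout tumours, a change of -0.27 (SE 0.11, limma adjusted p = 0.325). Wild type tumour 1 was next to the highest knockout tumour, so the Fzd8 groups were barely apart. The Fzd8 values of the knockout tumours lay just above the range of absent sex-linked genes (4.31 to 5.74). Ryk, a WNT receptor with an inactive kinase domain, had log2 values of 11.65, 11.80 and 11.75 in the wild type and 11.54, 11.60 and 11.40 in the knockout tumours (log2 change -0.22, SE 0.10, limma adjusted p = 0.369). Fzd9 was lower in knockout tumours without overlap as well (-0.17, interval -0.39 to 0.04). Fzd4, the receptor of norrin in vessels, and Fzd5 had changes of -0.04 and -0.10 with overlapping groups. Fzd10 had a change of -0.02 at mean levels of 5.05 and 5.03, within the range of absent sex-linked genes.

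**Figure D3:**
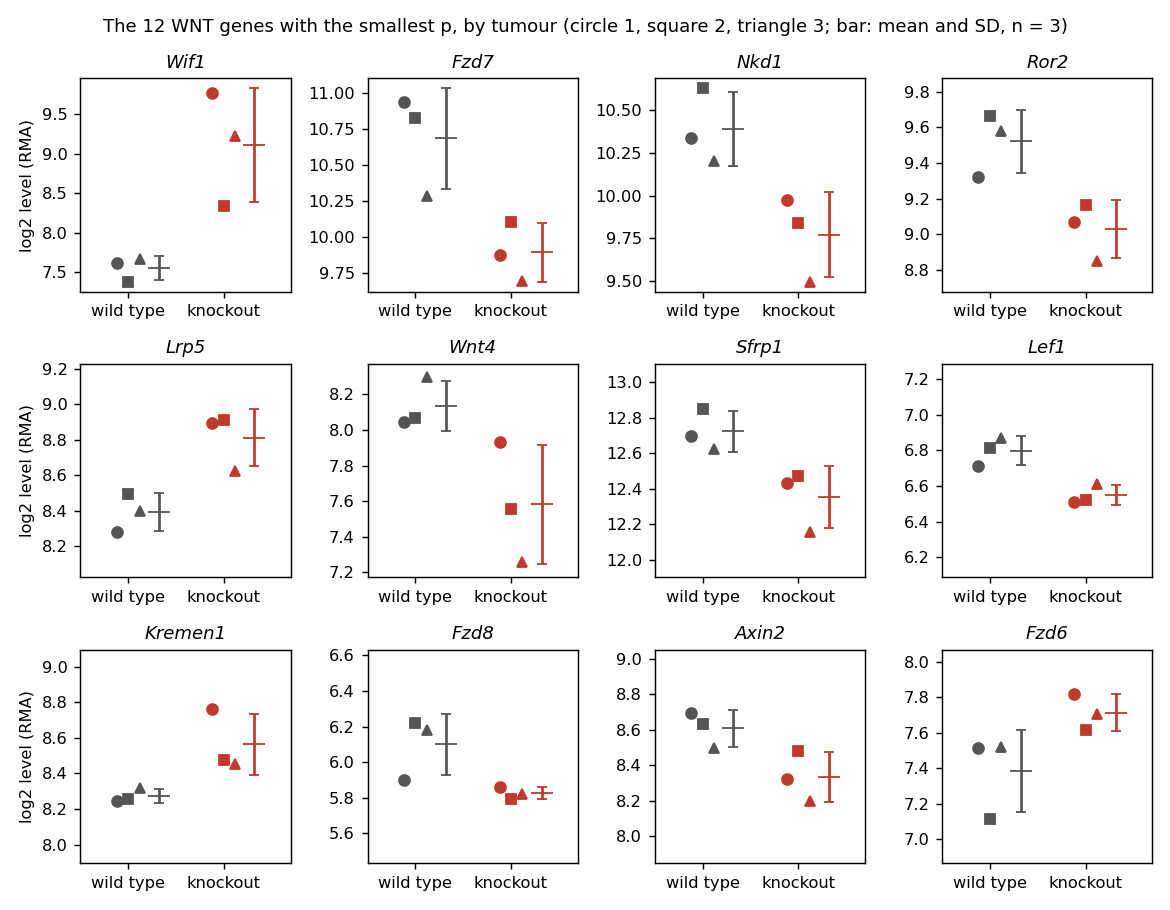
Log2 level (y axis, RMA, with a range that differs between panels) in each of the 3 wild type (grey) and 3 knockout (red) tumours for the 12 WNT genes with the smallest unadjusted p, with mean and SD (n = 3). The groups do not overlap in any of the 12 panels, and the Wif1 values of the knockout tumours spread from 8.34 to 9.76.

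The log2 changes of the 11 extracellular antagonists were negative in 8 and positive in 3 (median -0.06). The WNT gene with the largest change of all 59 was Wif1, which encodes a secreted protein that binds WNT ligands. Its log2 values were 7.62, 7.38 and 7.67 in the wild type and 9.76, 8.34 and 9.23 in the knockout tumours. The wild type tumours lay close together, and each knockout tumour was higher by its own amount, knockout tumour 2 the least. The mean change was 1.55 (SE 0.32, interval 0.82 to 2.28, limma adjusted p = 0.126), or 2.93-fold. Without knockout tumour 2 it was 1.94 and passed (limma adjusted p = 0.0182), and without each of the other tumours the adjusted p lay between 0.118 and 0.324. The exact two-sided permutation test over the 6 arrays gave p = 0.1, the smallest that 3 against 3 arrays can give. It gave the same p for all 18 WNT genes whose groups did not overlap.

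Knockout tumour 2 was also the lowest of its group in the mean level of 7 of the 9 marker lists, mature neurons, glia and vessels among them. The mean log2 level of 7 mature granule neuron markers was 7.64, 8.02 and 8.34 in wild type and 9.50, 8.23 and 9.47 in knockout tumours. That of 6 Purkinje cell and inhibitory neuron markers was 6.70, 7.23 and 7.62 in wild type and 8.60, 7.55 and 8.58 in knockout tumours. Of the mature granule neuron markers 6 of 7 had positive changes, among them Cbln3 (2.29) and Grin2c (0.93), and all 6 Purkinje and inhibitory neuron markers measured were positive, among them Calb1 (2.42) and Gad1 (0.47). No marker in either list passed over all genes (limma), and the wild type and knockout ranges of both list means overlapped. The part of these cells in the Wif1 values was not tested.

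Sfrp1, a secreted Frizzled-related inhibitor that is also a target of SHH signalling, had log2 values of 12.70, 12.85 and 12.62 in the wild type and 12.43, 12.47 and 12.16 in the knockout tumours. The groups were apart, with a change of -0.37 (SE 0.12, limma adjusted p = 0.24). Kremen1, a transmembrane receptor that works with DKK proteins to remove LRP5/6 from the surface, had log2 values of 8.24, 8.26 and 8.32 in the wild type and 8.76, 8.48 and 8.45 in the knockout tumours (change 0.29, SE 0.11, limma adjusted p = 0.303). Here all knockout tumours were higher, tumour 1 the most. Sfrp2 had a change of 0.01 with the wide interval -0.77 to 0.80, and wild type tumour 2 (10.21) stood above the other wild type tumours (8.97 and 8.74). The DKK ligand inhibitors Dkk1, Dkk2, Dkk3 and Dkk4 had changes of -0.0044, -0.08, -0.14 and -0.06, and Frzb, Sfrp4 and Sfrp5 had changes of -0.09, -0.01 and -0.17. The groups overlapped for each of these 7 genes.

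R-spondins bind LGR receptors and so keep the ubiquitin ligases RNF43 and ZNRF3 from clearing Frizzled receptors. In this role 6 of 8 log2 changes were positive and 2 negative (median 0.08). The groups overlapped for all 8, where they were apart for 19.6% of all genes. The widest interval belonged to Lgr5, a receptor and canonical target, at -0.76 to 0.33 around a change of -0.22. Its wild type values of 8.97, 8.77 and 7.98 enclosed the knockout values of 8.36, 8.46 and 8.25, with wild type tumour 3 the lowest of all. The Lgr5 change was -0.52 without wild type tumour 3 (limma adjusted p = 0.109) and -0.02 without wild type tumour 1. The ligase genes Rnf43 and Znrf3 had changes of 0.15 (interval -0.12 to 0.43) and -0.10 (interval -0.41 to 0.21). The receptors Lgr4 and Lgr6 were at changes of 0.08 and 0.08, and the ligands Rspo1, Rspo2 and Rspo3 at 0.09, 0.05 and 0.16.

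Of the TCF/LEF factors, Lef1 was lower in knockout tumours and the repressor-type Tcf7l1 and the related Tcf7l2 had positive changes. Lef1, both a mediator and a target of beta-catenin, had log2 values of 6.71, 6.81 and 6.87 in the wild type and 6.51, 6.52 and 6.61 in the knockout tumours. Each knockout value was under each wild type value, by a small margin, with a change of -0.25 (SE 0.09, limma adjusted p = 0.292). Tcf7l2 had a change of 0.37 (interval -0.15 to 0.88) and Tcf7l1 one of 0.25 (interval -0.09 to 0.59), and in both the groups overlapped.

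The feedback targets are genes that canonical signalling raises in many tissues. Nkd1, which encodes an inhibitor of the signal transducer Dishevelled, had log2 values of 10.34, 10.63 and 10.20 in the wild type and 9.98, 9.84 and 9.49 in the knockout tumours. The groups were separate, knockout tumour 3 being the lowest, with a change of -0.62 (SE 0.16, interval -0.98 to -0.25, limma adjusted p = 0.184), a level 1.53 times as high in wild type tumours. Axin2, a scaffold of the beta-catenin destruction complex and a common readout of the canonical branch, had log2 values of 8.69, 8.63 and 8.50 in the wild type and 8.32, 8.48 and 8.20 in the knockout tumours. Wild type tumour 3 and knockout tumour 2 lay next to each other without overlap, and the change was -0.27 (SE 0.11, limma adjusted p = 0.326). A second Axin2 feature, not used in the test, had a change of -0.42. For Apcdd1, Sp5, Nkd2 and Notum the groups overlapped, with changes of -0.13 (interval -0.56 to 0.30), -0.11 (-0.46 to 0.24), 0.05 (-0.20 to 0.30) and 0.06 (-0.23 to 0.36). Over the 6 feedback targets 4 changes were negative and 2 positive, with a median of -0.12. This median was -0.02 without wild type tumour 3 and 0.00070 without knockout tumour 2.

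Promoter sequences were read for the 3 WNT genes with the smallest p, Wif1, Fzd7 and Nkd1, and for the 2 TCF/LEF or feedback genes with a window that held the TCF/LEF core, Lef1 and Sp5. They show which of these stretches hold the letters CTTTGA, on either strand, directly before an annotated start. Other forms of the TCF/LEF site were not searched. Each is 250 bases upstream of a RefSeq start, 5′ to 3′ on the gene's strand, from GRCm38.p6, and capitals mark CTTTGA or its reverse complement TCAAAG.
Wif1, chr10:121033754-121034003, plus strand: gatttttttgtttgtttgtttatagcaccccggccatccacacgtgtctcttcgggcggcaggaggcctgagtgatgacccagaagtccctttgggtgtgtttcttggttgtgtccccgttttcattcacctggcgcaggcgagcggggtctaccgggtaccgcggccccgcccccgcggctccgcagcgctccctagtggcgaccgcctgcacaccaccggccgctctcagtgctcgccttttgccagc
Fzd7, chr1:59481897-59482146, plus strand: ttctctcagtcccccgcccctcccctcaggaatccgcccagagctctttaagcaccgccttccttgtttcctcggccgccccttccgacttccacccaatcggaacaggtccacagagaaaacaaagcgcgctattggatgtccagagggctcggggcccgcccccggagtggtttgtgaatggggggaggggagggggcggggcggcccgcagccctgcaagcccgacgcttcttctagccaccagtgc
Nkd1, chr8:88527383-88527632, plus strand: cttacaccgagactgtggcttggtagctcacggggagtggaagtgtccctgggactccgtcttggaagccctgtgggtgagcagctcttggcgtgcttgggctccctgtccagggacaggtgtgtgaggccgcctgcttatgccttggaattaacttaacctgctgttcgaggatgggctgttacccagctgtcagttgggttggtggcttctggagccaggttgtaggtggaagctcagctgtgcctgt
Lef1, an annotated start among several, chr3:131156044-131156293, plus strand: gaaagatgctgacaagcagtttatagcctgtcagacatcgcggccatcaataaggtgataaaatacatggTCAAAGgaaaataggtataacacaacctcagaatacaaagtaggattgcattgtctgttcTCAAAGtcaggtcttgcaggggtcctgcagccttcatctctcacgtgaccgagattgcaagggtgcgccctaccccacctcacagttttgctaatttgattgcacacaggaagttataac
Sp5, chr2:70474673-70474922, plus strand: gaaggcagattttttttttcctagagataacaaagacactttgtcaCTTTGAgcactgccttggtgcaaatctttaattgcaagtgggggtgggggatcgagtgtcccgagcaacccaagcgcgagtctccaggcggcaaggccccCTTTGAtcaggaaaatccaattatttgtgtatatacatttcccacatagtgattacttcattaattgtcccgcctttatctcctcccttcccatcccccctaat

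The Wif1, Fzd7 and Nkd1 stretches hold no CTTTGA or TCAAAG, and those of Lef1 and Sp5, chosen for holding them, have 2 matches each. In Sp5 the matches began 204 and 104 bases before the start, and in Lef1 180 and 120 bases before it. Over the windows of 250 bases before to 50 after each start, 40 WNT genes had an entry, with 49 windows. The core was found on either strand in 8 of these windows (16.3%), those of Dkk1, Frzb, Fzd1, Lef1, Ror1, Sp5, Wnt11 and Wnt5b, and in 16% of all 32851 windows. The cAMP response element TGACGTCA, its own reverse complement, was in 0 of the 49 windows and in 1.79% of all windows. The GLI motif TGGGTGGTC was in 0 of the 49 on either strand and in 0.253% of all. Of the 8 genes with the core, Lef1 and Ror1 had groups that did not overlap, Lef1 lower and Ror1 higher in knockout tumours, so 2 of 8 stand beside 19.6% of all genes and 30.5% of the measured WNT genes. A match describes letters only, and a stretch without one says nothing of binding elsewhere.

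Other genes of the WNT pathway were described from a separate list of 76, of which 73 were measured. None passed over all genes (limma, 0 of 73), 8 had an unadjusted p under 0.05 (10.96%, against 13.8% of all genes), and the groups did not overlap for 14 (19.2%, against 19.6%). Wls, the carrier that brings WNT ligands to the cell surface, had log2 values of 9.37, 9.32 and 9.16 in the wild type and 9.70, 9.79 and 9.61 in the knockout tumours, a change of 0.42 (SE 0.10, limma adjusted p = 0.164). All knockout tumours were above the wild type tumours. Porcn, the enzyme that attaches the lipid to WNT ligands, is X-linked and had a change of 0.26 with overlapping groups (0.04 without wild type tumour 3).

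Inside the cell, beta-catenin itself (Ctnnb1) was at a log2 change of 0.03 (interval -0.17 to 0.23) and Gsk3b, the kinase that marks it for destruction, at -0.0075. Apc2, a relative of the destruction complex scaffold Apc, had log2 values of 10.13, 9.95 and 9.51 in the wild type and 9.03, 9.40 and 9.25 in the knockout tumours, a change of -0.64 (SE 0.17, limma adjusted p = 0.192). The groups were apart, though wild type tumour 3 lay near the knockout tumours. Btrc, which encodes a ubiquitin ligase subunit that recognises beta-catenin, had a change of 0.30 (SE 0.09, limma adjusted p = 0.213), and all knockout tumours were higher. Tle3, a Groucho co-repressor of TCF/LEF factors, had log2 values of 10.13, 10.10 and 10.05 in the wild type and 9.70, 9.65 and 9.53 in the knockout tumours. Both groups were tight and well apart, with a change of -0.47 (SE 0.09), the smallest adjusted p of the list (limma, 0.115).

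Reck, a membrane protein needed for Wnt7 signals in vessels, was at a log2 change of 0.40 (SE 0.13). The planar polarity genes Celsr2 and Prickle2 were at -0.38 (SE 0.12) and 0.30 (SE 0.12). Limma adjusted p-values for these 3 genes lay between 0.236 and 0.332, and the groups did not overlap except for Prickle2. The receptor kinase gene Musk averaged 5.68 in wild type tumours, within the range of absent sex-linked genes, and 6.24 in knockout tumours (limma adjusted p = 0.184). The widely used targets Ccnd1 and Myc were at -0.24 (interval -0.59 to 0.11) and 0.10 (interval -0.23 to 0.42), with overlapping groups. Of the 11 other reported targets measured, none had groups that did not overlap, where the groups were apart for 19.6% of all genes.

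Knockout tumour 3 had the lowest value in 8 of the 13 WNT genes that were lower in knockout tumours without overlap, tumour 2 in 3 and tumour 1 in 2. For those with the smallest p, Fzd7, Nkd1, Ror2, Wnt4 and Sfrp1, this was tumour 3 in every case. For the next by p, Lef1 and Fzd8, it was tumour 1 and tumour 2. The share of all genes with tumour 3 lowest was not counted. Marker lists of other cells were also described by the range of their mean level. Apart from the progenitor list, only the microglia and macrophage list had ranges that did not overlap. The mean level of 9 microglia and macrophage markers was 9.34 to 9.53 in wild type and 9.06 to 9.28 in knockout tumours, so these ranges did not overlap, and all 9 changes were negative, with Ctss and C1qa at -0.57 and -0.42. Oligodendrocyte lineage markers ranged from 8.81 to 9.40 in wild type and from 8.74 to 8.93 in knockout tumours (7 of 8 negative, Pdgfra -0.45, Sox10 -0.69). Of the markers of SHH medulloblastoma and granule neuron progenitors 8 of 12 were negative, with Neurod1 at -1.13 and Zic2 at -0.56. That list includes Sfrp1, and Atoh1 of the same list was at -0.28 with overlapping groups. The other 4 markers of the list were positive, among them Ptch1 (0.33) and Gli1 (0.30), both higher in knockout tumours without overlap. Astrocyte and Bergmann glia markers ranged from 8.85 to 9.51 and from 9.36 to 9.57 (7 of 10 positive, Aldoc 1.47), and Gjb6 of that list averaged 5.68 in wild type tumours, within the range of absent sex-linked genes, and 6.25 in knockout tumours.

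Vessel markers ranged from 8.02 to 8.22 in wild type and from 7.996 to 8.35 in knockout tumours (6 of 9 positive, Tek 0.50, Abcc9 -0.37). Fibroblast and meningeal markers ranged from 8.19 to 8.87 and from 8.44 to 8.61 (6 of 9 positive, Igf2 1.39, Pdgfra -0.45), and choroid plexus markers from 7.52 to 9.12 and from 7.46 to 7.69 (6 of 7 negative, Ttr -2.43, Aqp1 -0.31). The Ttr change was -1.08 without wild type tumour 1, the highest of its group, and -3.79 without wild type tumour 3. No marker of any list passed over all genes (limma), only Gjb6 had a group mean within the range of absent sex-linked genes, and the part of these cells in the WNT values was not tested.

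**Figure D4:**
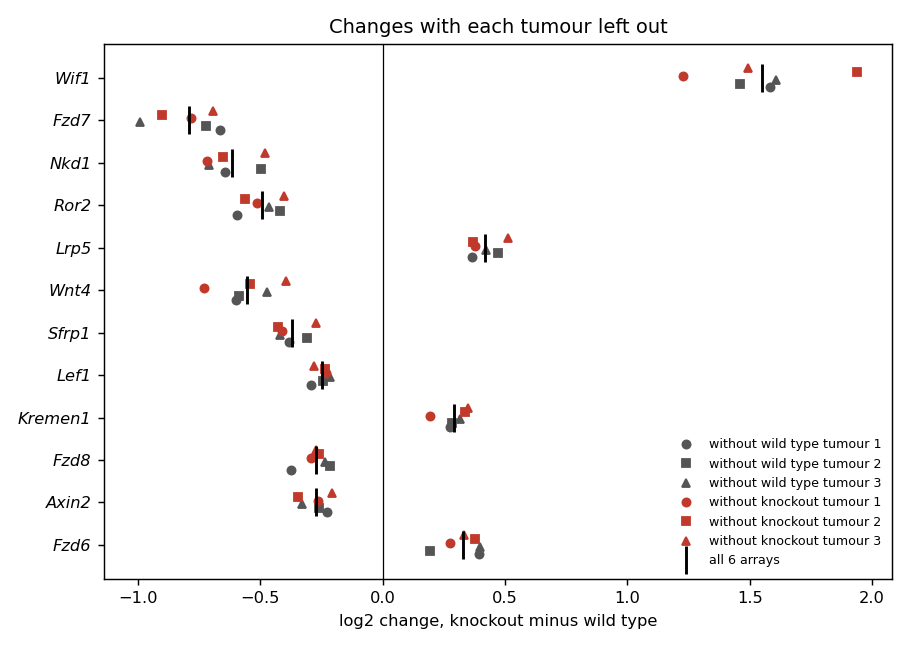
Log2 change (x axis, knockout minus wild type) of the 12 WNT genes with the smallest p when each tumour is left out in turn (grey for wild type, red for knockout) and with all 6 arrays (black bars). All points keep their sign, as they must for groups that do not overlap, and Wif1 ranges from 1.23 to 1.94.

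With each tumour left out in turn, the log2 changes of all 12 genes with the smallest p kept their sign. This was certain beforehand, since their groups do not overlap, so only the size of each change is informative. Wif1 lay between 1.23 and 1.94, Fzd7 between -0.99 and -0.67, Nkd1 between -0.72 and -0.48 and Wnt4 between -0.73 and -0.39. The narrowest range was that of Lef1, -0.29 to -0.21. Lrp5 lay between 0.36 and 0.51, Ror2 between -0.59 and -0.40 and Axin2 between -0.35 and -0.21. Leaving out 1 tumour moved the change of Fzd6 to 0.19 (without wild type tumour 2), that of Ror1 to 0.19 (without wild type tumour 3) and that of Kremen1 to 0.19 (without knockout tumour 1). Among the TCF/LEF factors Tcf7l2 was at 0.15 without wild type tumour 3 and Tcf7l1 at 0.12 without knockout tumour 1. Of the 5 genes with 2 features, Sfrp2, Notum, Lgr5, Axin2 and Lrp6, the feature not used in the test had changes of -0.34, -0.13, -0.43, -0.42 and -0.78. For Sfrp2 and Notum the used feature had the opposite sign, 0.01 and 0.06.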

How the data were processed

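The authors deposited log2 expression values of 6 arrays. The submitters' processing notes name RMA and the oligo package, with versions not given in the sources used here. This step brings the arrays to nearly the same distribution, with medians over all features of 6.91 to 7.002. It compresses changes of dim features, and a shift common to nearly all genes would be lost. The array's genome build is not stated. Arrays have no read depth, and their number limits the precision.

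Of 41345 features, 23521 had 1 platform symbol, 1814 several and 16010 none. 99.2% of the first matched a RefSeq gene (GRCm38.p6). For genes with several features the one with the highest mean was used, which left 22180 genes with no filter. Samples were grouped by title. A two-sided limma 3.58.1 fit (R 4.3.3) compared 3 knockout with 3 wild type tumours, with Benjamini-Hochberg adjustment over all genes. The fit was tested on simulated data. Alternatives covered scaling, dim genes, the variance model, array weights, features per gene, a replicate block, X and Y genes, the threshold and each array left out. The count at an unadjusted p, and leaving out each array for markers and for all other WNT genes, were added after seeing the data.

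The members, the other lists and the tests were chosen with earlier results of these data known. Named were members past the threshold, the 12 with the smallest p, in each role the 2 with the highest mean and the 2 with the smallest p, 8 other WNT genes with the smallest p, Ctnnb1, Ccnd1, Myc, Crebbp and 2 markers per list. Other members were named for separate or overlapping groups. Gsk3b, Porcn, Ptch1, Gli1 and Atoh1 were chosen after their values were seen. Promoter letters were printed for Lef1 and Sp5 because their windows held the motif.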

Additional observations from a re-analysis of the deposited data

How the results depend on the processing

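The count of 0 WNT genes past the threshold held under all settings that kept the 6 arrays, and leaving out each array gave 0 to 1 (Fzd7 without wild type tumour 3, Wif1 without knockout tumour 2). The smallest adjusted p of a WNT gene with 6 arrays lay between 0.0807 (intensity trend) and 0.14 (quantile normalised again). The count at an unadjusted p under 0.05, 12 of 59 with all arrays, was 8 to 12 with an array left out and 12 to 14 otherwise. With an array left out this was 13.6% to 20.3% of the WNT genes, against 9.8% to 16.7% of all genes. Without the dimmest 25% and 50% of genes only 55 and 25 WNT genes were tested. Of these, 25.5% and 48% had an unadjusted p under 0.05, against 17.1% and 20.3% of all genes tested. For the other WNT genes the count of 0 held under every setting run. Over all genes 46 passed, against 77 without the dimmest 25% of genes, 107 with an intensity trend, 131 at a threshold of 0.1 and 4 to 128 with an array left out.

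Replicate numbers are shared between the groups, but same-numbered arrays did not deviate together (r = -0.03, 0.05 and 0.10 across genes), so they were not taken as pairs. With the replicate block 12 genes passed over all genes and 0 WNT genes, and no call of a WNT gene changed.

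The role medians that moved by more than their spread between replicates were those of the feedback targets (-0.21 to 0.00070 with an array left out) and of the R-spondin axis (0.0021 to 0.10). The sign turned for changes close to 0. Sfrp2 was at -0.016 with arrays centred on their median, -0.055 with array weights, -0.16 with the mean of its features and -0.27 to 0.46 with an array left out. Ctnnb1 was at -0.0024 with arrays centred, and -0.0035 to 0.057 with an array left out. Leaving out an array gave -0.17 to 0.035 for Znrf3, -0.028 to 0.17 for Lgr4, -0.34 to 0.014 for Apcdd1 and -0.0017 to 0.24 for Myc. The cause was not tested. Crebbp passed without the dimmest 50% of genes (limma adjusted p = 0.0486) and with an intensity trend (0.0263).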
